A study of Mus musculus with 10 samples.

Results

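The ADAM and ADAMTS genes encode 2 related branches of zinc metalloproteinases, and 43 of them were among the 18193 genes measured in primary mouse keratinocytes. A gene was taken when its symbol was Adam or Adamts followed by a number and at most 1 letter. It was read through the probe set with the highest mean over all 10 arrays among those annotated to that gene alone, so no difference between genotypes entered the choice. Of the 43 genes, 28 are ADAMs and 15 are ADAMTSs.

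ADAM proteins mostly sit in the cell membrane and cut the outer parts off other membrane proteins, a step called ectodomain shedding that releases EGF receptor ligands and starts Notch receptor cleavage. ADAMTS proteins carry thrombospondin repeats, are secreted, and cut matrix proteins such as versican, aggrecan and procollagens. In skin, shedding by ADAM10 and ADAM17 is known for feeding EGF receptor and Notch signalling in the epidermis, while most ADAMTS genes are better known from the connective tissue below it, and many ADAMs are made mainly by germ cells.

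The cells labelled KO came from Sgpp1-/- mice and those labelled WT from Sgpp1+/+ mice. The Sgpp1 protein is a phosphatase of sphingosine-1-phosphate, a signalling lipid. Cultures of both genotypes were kept for 3 to 4 days at 0.05 mM calcium, in EMEM containing 8% fetal calf serum. There were 5 KO arrays (KO 8, KO 9, KO 10, KO 21 and KO 23) and 5 WT arrays (WT 1 to WT 5), all of 1 Affymetrix mouse expression design. The labels give neither the age of the mice, nor how the allele was made, nor whether each array came from a separate animal, so p-values measure the spread between these samples. The labels also number the arrays so that every WT number comes before every KO number, and if that is a run order it cannot be told apart from the genotype.

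Values are log2 signals, and a difference is KO minus WT. Array medians lay between 5.02 and 5.17, and WT 1 resembled the others least (mean r 0.955, where every other array had at least 0.967). Sgpp1 itself read 8.46, 9.01, 8.69, 8.92 and 9.03 on KO 8, KO 9, KO 10, KO 21 and KO 23, and 6.25, 7.82, 8.24, 8.33 and 7.70 on WT 1 to WT 5. It was thus not lower on the arrays labelled KO. In all 3 Sgpp1 probe sets the 5 KO values lay above every WT value, with differences of 1.24, 1.15 and 0.51. The printed probe set, with the difference of 1.15, did not pass (limma adjusted p = 0.102). Whether these probe sets lie in the disrupted part of the gene is not given in the sources used here, so the values do not check the labels, and every direction given here rests on the labels alone. The keratinocyte markers had a mean log2 signal over 7 genes of 10.41 to 10.95 on KO arrays and 10.29 to 10.62 on WT arrays. The dimmest of them was Krt15, with a mean of 5.85 over all arrays. Markers of other cell types varied between arrays. The summed signal of 9 fibroblast genes (linear scale) was 892, 3290, 1680, 1950 and 4870 on KO 8, KO 9, KO 10, KO 21 and KO 23, and 820, 1220, 14400, 12000 and 856 on WT 1 to WT 5, so WT 3 and WT 4 stood above all others. The mean log2 signal of these 9 genes did not separate the genotypes (difference -0.40, exact permutation p = 0.603, two-sided, n = 5 each). Of the fibroblast genes, 1 (Lum) had a mean as low as genes without transcript. Endothelial markers were dim (summed signal 87.9 to 124 on KO arrays and 108 to 126 on WT arrays, 6 genes, 3 with means within or below the range of genes without transcript), and 6 melanocyte markers summed to 2510 to 8400 on KO arrays and 858 to 8540 on WT arrays. By the same exact permutation test the mean log2 signal differed by 0.25 for keratinocyte (p = 0.0556), -0.24 for endothelial (p = 0.0556), 0.70 for melanocyte (p = 0.302, all 6 genes higher in KO by mean) and -0.14 for myeloid markers (p = 0.548). Adjusted over the 5 marker lists by Benjamini-Hochberg, these exact p were 0.139 for keratinocyte, 0.139 for endothelial, 0.503 for melanocyte, 0.603 for myeloid and 0.603 for fibroblast markers, where 0.00794 is the smallest unadjusted p the design allows. In such mixed cultures fewer cells of a type and less RNA per cell cannot be told apart.

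As a mark of low signal, that of 3 Y-linked genes on the 6 arrays without Y-linked transcript was used, which ran from 2.08 to 3.84. These were the arrays on which Kdm5d, itself 1 of the 3 genes, read below 5. By this measure 21 of the 43 genes had a mean signal above the range and 22 lay within or below it, where 13612 of all 18193 genes lay above it. Probe sets differ in how well they bind, so the signal of one gene is not set against that of another. For the same reason a mean above the range does not show that transcript was present, nor one within it that transcript was absent. Each gene was put on 1 list of roles, and the ADAMs of sperm, testis or epididymis were not sorted by protease activity. All 9 genes listed as membrane ADAMs with protease activity lay above the range (Adam8, Adam9, Adam10, Adam12, Adam15, Adam17, Adam19, Adam28 and Adam33). So did 2 of 3 membrane ADAMs without protease activity, 4 of 16 ADAMs of sperm, testis or epididymis, 3 of 7 ADAMTS proteoglycanases and 3 of 7 other ADAMTS genes. The 1 measured procollagen N-propeptidase, Adamts3, lay within it.

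Promoters were compared because these genes are read in the same cells on such different sides of that range. The RefSeq table (GRCm38.p6) holds 22 promoters of 20 of the 43 genes, and none of Adam12. The 250 bases before the start are printed 5′ to 3′ on the gene's strand for Adam10, Adam17 and Adamts1, whose signal was far above the range, and for Adamts3 and Adam25, which lay within or below it. Capitals mark CG dinucleotides.
Adam10 (chr9:70678732-70678981, plus strand): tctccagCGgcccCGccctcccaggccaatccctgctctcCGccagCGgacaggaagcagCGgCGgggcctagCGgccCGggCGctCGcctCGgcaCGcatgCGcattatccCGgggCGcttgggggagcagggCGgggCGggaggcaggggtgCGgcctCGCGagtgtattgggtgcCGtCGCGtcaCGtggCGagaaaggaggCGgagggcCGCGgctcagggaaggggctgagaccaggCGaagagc
Adam17 (chr12:21373633-21373882, minus strand): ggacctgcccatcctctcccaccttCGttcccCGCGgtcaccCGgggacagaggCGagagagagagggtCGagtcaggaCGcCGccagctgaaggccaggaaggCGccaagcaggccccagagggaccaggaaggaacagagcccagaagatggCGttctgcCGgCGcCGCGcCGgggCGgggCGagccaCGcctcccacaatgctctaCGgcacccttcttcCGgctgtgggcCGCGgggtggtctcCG
Adamts1 (chr16:85803114-85803363, minus strand): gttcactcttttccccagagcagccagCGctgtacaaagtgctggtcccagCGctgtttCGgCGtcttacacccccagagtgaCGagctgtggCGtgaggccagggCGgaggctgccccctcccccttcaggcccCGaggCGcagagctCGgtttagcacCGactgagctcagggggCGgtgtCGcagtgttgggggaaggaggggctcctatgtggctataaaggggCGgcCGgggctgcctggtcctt
Adamts3 (chr5:89883335-89883584, minus strand): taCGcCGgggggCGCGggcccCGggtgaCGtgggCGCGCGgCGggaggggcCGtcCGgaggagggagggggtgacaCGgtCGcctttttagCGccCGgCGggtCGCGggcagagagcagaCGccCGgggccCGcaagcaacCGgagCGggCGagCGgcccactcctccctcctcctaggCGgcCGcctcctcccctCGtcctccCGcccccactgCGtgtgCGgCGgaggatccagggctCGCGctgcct
Adam25 (chr8:40751958-40752207, plus strand): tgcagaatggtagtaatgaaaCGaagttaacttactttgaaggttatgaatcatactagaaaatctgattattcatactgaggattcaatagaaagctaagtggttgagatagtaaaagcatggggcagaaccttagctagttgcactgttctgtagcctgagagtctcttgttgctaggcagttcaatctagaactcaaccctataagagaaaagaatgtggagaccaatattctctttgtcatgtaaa

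These windows hold 29 CG dinucleotides for Adam10, 23 for Adam17 and 15 for Adamts1, against 35 for Adamts3 and 1 for Adam25. A promoter dense in CG therefore occurred on both sides of the range. The printed promoters were picked as examples, and Adamts3 held the most CG of all 22. The counts ran from 1 to 29 above the range and from 0 to 35 within or below it. The median over promoters was 7.0 for the 11 promoters of 9 genes above the range and 6.0 for the 11 of genes within or below it. It was 6.0 for 32851 mouse promoters of the same length. These figures count promoters and not genes. Adam19 entered 3 times above the range, with 5, 7 and 4 CG dinucleotides. The median of 7.0 is itself an Adam19 promoter, and counting that gene once would give a higher one. The GC box GGGCGG, searched on both strands, was present in 5 of 11 promoters, in 4 of 11 and in 32.7% of all promoters. No Adam19 promoter held it. The letters TATAAA (both strands) were found in 3 of the 22 and in 12.4% of all promoters, and the AP-1 motif TGANTCA in 2 of the 22 and in 6.75% of all. A match describes the letters of the window and not a working site.

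Across the family, 1 gene was called lower in KO and 0 were called higher (limma, Benjamini-Hochberg adjusted over 18193 genes, threshold 0.05). Over all genes 2.65% were called, 2.3% higher and 0.346% lower. The 1 of 43 is near the share called in either direction, but not near the smaller share called lower. A count of 1 gene is not read as a result about the family. At an unadjusted p under 0.05, 4 of the 43 were lower (Adam12, Adamts4, Adamts9 and Adamts10) and 0 were higher, where 5.65% of all genes were lower and 7.33% higher. In 0 of the 43 did the 5 KO values stay apart from the 5 WT values, a separation seen in 4.38% of all genes. The median difference was 0.00 for the 43 genes and -0.01 for all genes, and the median size of a difference was 0.15 for both.

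**Figure D1:**
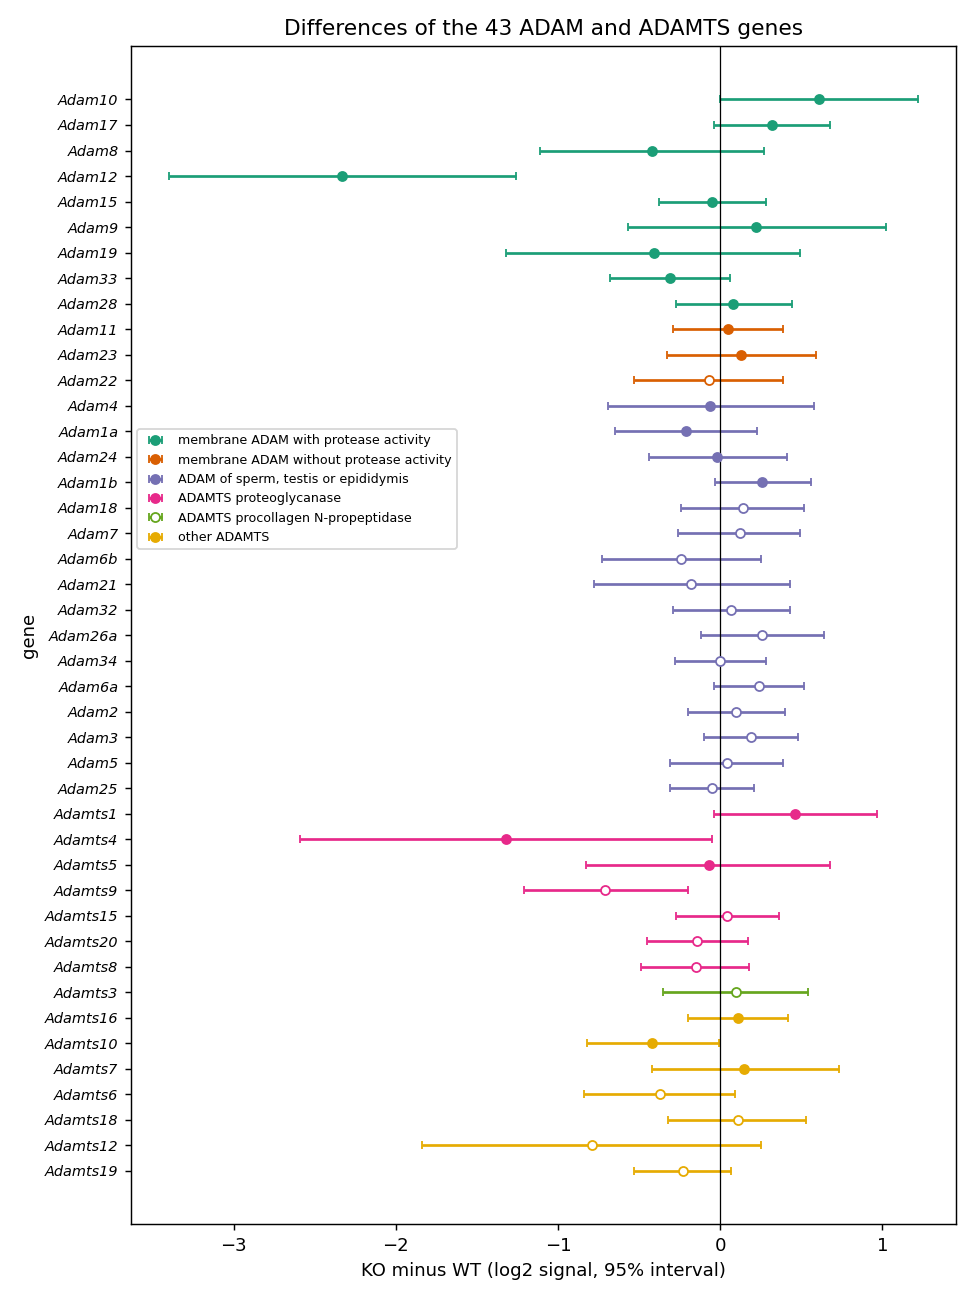
Difference between KO and WT (log2 signal, horizontal axis) for each of the 43 genes (vertical axis), with its 95% interval from limma and the colour giving the role. Filled points have a mean above the Y-linked range and open points do not; Adam12 lies farthest from 0, at -2.33, and Adam10 has the highest value, 0.61.

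The called gene was Adam12, which encodes meltrin alpha, a membrane protease that cuts EGF receptor ligands and insulin-like growth factor binding proteins and is made in mesenchymal cells and in growing or wounded tissue. Its main probe set read 6.54, 7.38, 6.28, 6.70 and 8.45 on KO 8, KO 9, KO 10, KO 21 and KO 23, and 8.60, 9.22, 10.38, 10.55 and 8.23 on WT 1 to WT 5. Every KO array but KO 23 lay below every WT array, and KO 23 exceeded only WT 5. The mean was 7.07 ± 0.87 in KO and 9.40 ± 1.04 in WT (SD, n = 5 each), a difference of -2.33 (SE 0.50, 95% interval -3.40 to -1.26), or 5.03-fold lower, with a limma adjusted p of 0.0241. This was the most negative difference of all 18193 genes, where the median over the 63 genes called lower was -0.93 and the next most negative of them was -1.99.

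A separate probe set of Adam12 gave the same direction. It read 4.97, 5.19, 4.63, 4.25 and 5.99 on the KO arrays in the same order, and 6.17, 6.93, 7.84, 7.94 and 5.79 on WT 1 to WT 5. KO 23 was again the only KO array that overlapped, above WT 5 alone. This probe set differed by -1.93 (SE 0.43, limma adjusted p = 0.0411) over all 34945 probe sets of a single gene.

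**Figure D2:**
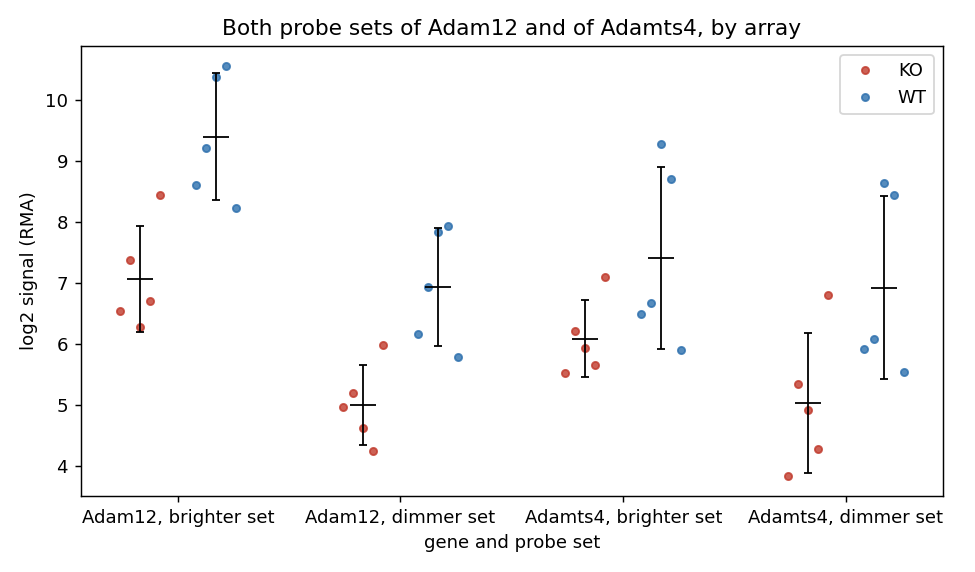
Log2 signal (vertical axis) of both probe sets of Adam12 and of Adamts4 (horizontal axis), with 1 point per array, KO left of WT, and the mean ± SD of 5 arrays in black. Both Adam12 probe sets show KO 23 as the 1 KO array that overlaps WT, and both Adamts4 probe sets show WT 3 and WT 4 above all other arrays.

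The Adam12 call depended on single arrays, while its direction did not. Leaving out 1 array at a time gave differences from -2.67 to -2.04 and limma adjusted p from 0.00814 to 0.0789. The call was lost without KO 8 (adjusted p = 0.0582), KO 9 (0.0582), KO 10 (0.0789), KO 21 (0.0658), WT 3 (0.0543) or WT 4 (0.0649). Adam12 read highest on WT 3 and WT 4, the 2 arrays with the most fibroblast signal, and among KO arrays highest on KO 23 and next on KO 9, which had the most fibroblast signal in KO. Without WT 3 and WT 4 the difference was -1.62 with a limma adjusted p of 0.109, 27th from the most negative. On the arrays with the least fibroblast signal, Adam12 read 6.54 on KO 8 (summed signal 892), against 8.60 on WT 1 (820) and 8.23 on WT 5 (856). KO 8 was the 1 KO array at that level, and KO 8 and WT 1 had the highest spike-in signal of all arrays (10.12 and 10.40, mean log2). The part of fibroblast content in the Adam12 difference was not tested.

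**Figure D3:**
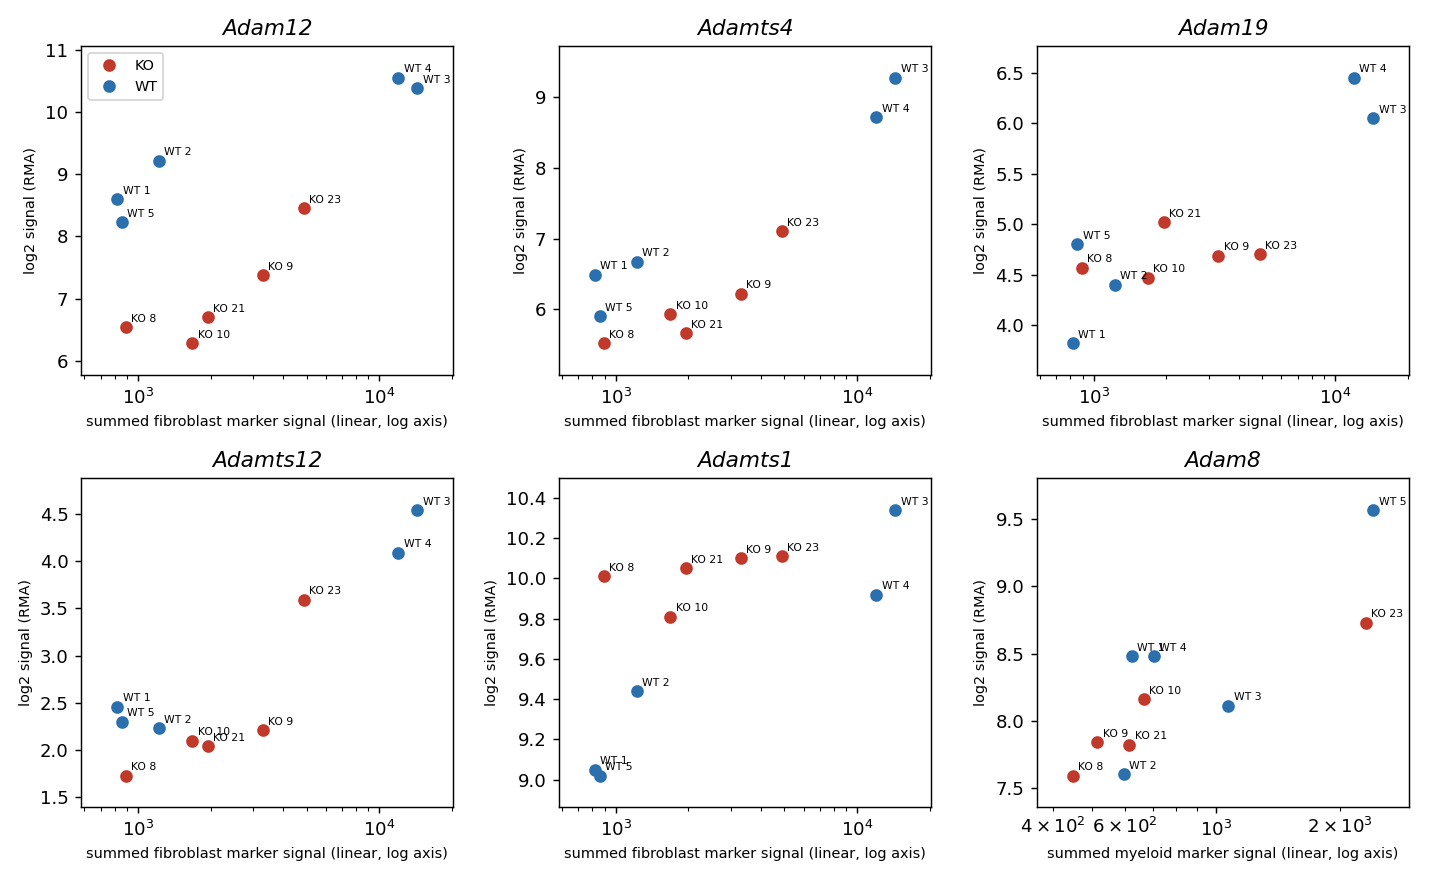
Log2 signal (vertical axes) of 5 genes against the summed linear signal of 9 fibroblast markers, and of Adam8 against that of 8 myeloid markers (horizontal axes, log scale), with 1 labelled point per array. Adam12 is lower on KO 8, the 1 KO array at a like fibroblast signal, than on WT 1 and WT 5. Adamts4, Adam19 and Adamts12 are highest on WT 3 and WT 4.

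Adam10 encodes the shedding protease that cuts Notch receptors and E-cadherin. It read 9.41, 9.92, 9.70, 9.63 and 9.87 on KO 8, KO 9, KO 10, KO 21 and KO 23, and 7.91, 9.22, 9.79, 9.26 and 9.30 on WT 1 to WT 5. WT 3 alone among the WT arrays reached the KO values, and WT 1 was far below the rest. Adam10 thus differed by 0.61 (SE 0.28), which did not pass (limma adjusted p = 0.388), and by 0.31 without WT 1. The other 3 Adam10 probe sets differed by 0.35, 0.39 and 0.35, and the smallest adjusted p among them over all probe sets was 0.388.

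Adam17, the protease also called TACE that frees tumour necrosis factor, TGF-alpha and amphiregulin, ran within a narrow band. It read 9.05, 9.11, 9.15, 8.99 and 9.29 on the KO arrays in the same order, and 8.25, 8.81, 8.96, 8.80 and 9.16 on WT 1 to WT 5. WT 1 was again the lowest array and WT 5 overlapped the KO values. The difference was 0.32 (95% interval -0.04 to 0.68) with a limma adjusted p of 0.462, and 0.18 without WT 1.

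Adam9 and Adam15 encode membrane proteases made in many epithelia. Adam9 averaged 8.08 ± 0.28 in KO and 7.86 ± 0.94 in WT (SD, n = 5 each), a difference of 0.22 (SE 0.37). WT 1 read 6.20 against 8.08 to 8.47 on the other WT arrays, and without it the difference was -0.19. Adam15 averaged 8.03 ± 0.19 in KO and 8.08 ± 0.23 in WT, a difference of -0.05 (95% interval -0.38 to 0.28). Neither passed, with limma adjusted p of 0.895 and 0.952.

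Adam8 encodes a protease best known from leukocytes and osteoclasts. It read 7.59, 7.84, 8.16, 7.82 and 8.73 on KO 8, KO 9, KO 10, KO 21 and KO 23, and 8.48, 7.60, 8.11, 8.48 and 9.57 on WT 1 to WT 5. The highest array of each genotype, KO 23 and WT 5, was also the one with the most myeloid signal. The summed signal of 8 myeloid genes was 2310 on KO 23 and 448 to 666 on the other KO arrays, and 2410 on WT 5 and 595 to 1070 on the other WT arrays, with 4 of the 8 genes at a mean within or below the Y-linked range. The Adam8 difference was -0.42 (SE 0.32, limma adjusted p = 0.685), -0.14 without WT 5 and -0.32 without KO 23 and WT 5, and the part of myeloid cells in it was not tested.

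The remaining genes listed as active membrane proteases also failed the test. Adam19, encoding meltrin beta, which cuts neuregulins, read 4.47 to 5.02 on KO arrays with a median of 4.69, and 3.82 to 6.45 on WT arrays. Its 2 highest values, 6.05 and 6.45, were on WT 3 and WT 4, and it is described because of that pattern, after its values were seen. The differences of Adam19, Adam33 and Adam28 were -0.41, -0.31 and 0.08, with limma adjusted p of 0.796, 0.515 and 0.920. Adam33 is known as an airway mesenchyme gene and Adam28 as a lymphocyte gene.

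Among membrane ADAMs that lack protease activity and act in adhesion or synapses, Adam11 averaged 5.51 ± 0.18 in KO and 5.46 ± 0.28 in WT (SD, n = 5 each). Adam23 averaged 4.52 ± 0.32 in KO and 4.39 ± 0.40 in WT. Their differences were 0.05 and 0.13, and that of Adam22, whose mean lay within the Y-linked range, was -0.07.

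The ADAMs of sperm, testis or epididymis, several of which serve sperm maturation or binding to the egg, moved little. Their 16 differences ran from -0.24 to 0.26 with a median of 0.06, 10 above 0 and 6 below. Adam4 averaged 4.99 ± 0.58 in KO and 5.05 ± 0.50 in WT, and Adam1a, Adam24 and Adam1b also had means above the Y-linked range. The highest differences were those of Adam1b and Adam26a, 0.26 each, and Adam1b did not pass (SE 0.14, limma adjusted p = 0.462), with its other probe sets at -0.01 and 0.12. The other 12 had means within or below the range, up to 3.55 for Adam18. Besides Adam18 and Adam25 they were Adam2, Adam3, Adam5, Adam6a, Adam6b, Adam7, Adam21, Adam26a, Adam32 and Adam34.

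**Figure D4:**
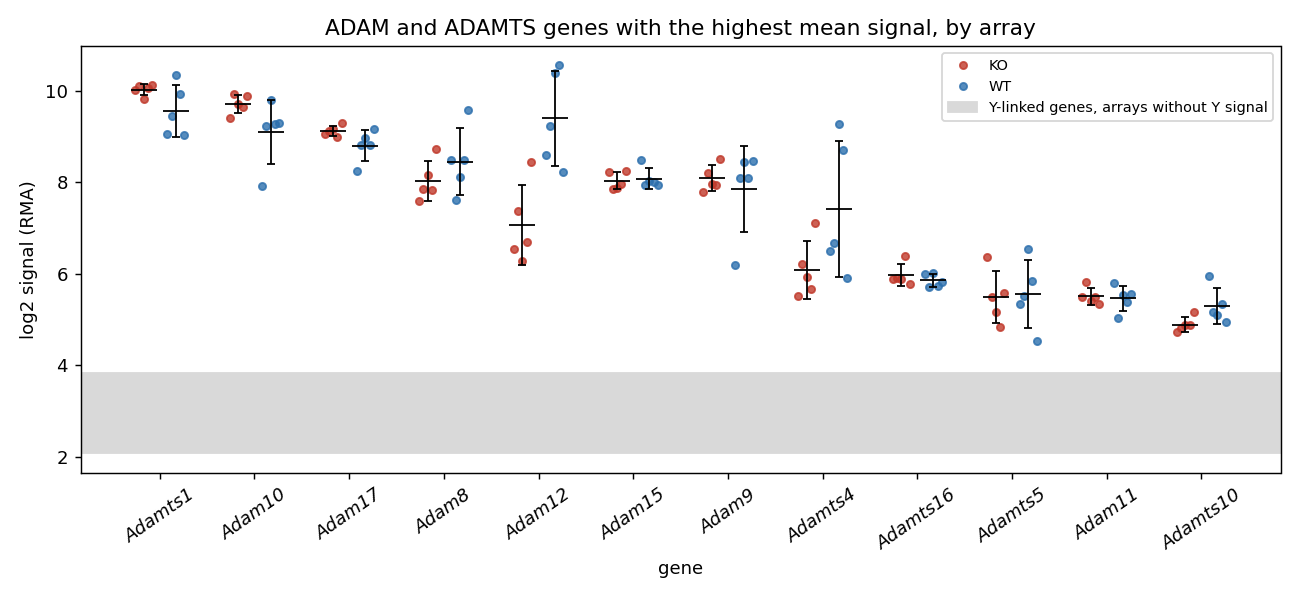
Log2 signal (vertical axis) of the 12 ADAM and ADAMTS genes with the highest mean over 10 arrays (horizontal axis), with 1 point per array, KO left of WT, and the mean ± SD of 5 arrays in black. The grey band is the range of 3 Y-linked genes on arrays without Y-linked transcript, 2.08 to 3.84, and every point lies above it.

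The ADAMTS proteoglycanases cut versican and aggrecan, the large proteoglycans of loose matrix and cartilage. Adamts1 read 10.01, 10.10, 9.81, 10.05 and 10.11 on KO 8, KO 9, KO 10, KO 21 and KO 23, and 9.05, 9.44, 10.34, 9.92 and 9.02 on WT 1 to WT 5. The KO arrays lay close together, with WT 3 above them, WT 4 among them and WT 1, WT 2 and WT 5 below. Adamts1 differed by 0.46 (SE 0.23), which did not pass (limma adjusted p = 0.448). Without WT 3 and WT 4, left out after the data had been seen, it was 0.85 with an adjusted p of 0.0284.

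Adamts4, also named aggrecanase 1, read 5.52, 6.22, 5.93, 5.66 and 7.10 on the KO arrays in that order, and 6.49, 6.67, 9.27, 8.71 and 5.90 on WT 1 to WT 5. WT 3 and WT 4 stood above all other arrays by over 1 log2 unit, and KO 23 was the highest KO array. Adamts4 differed by -1.32 (SE 0.58), 30th from the most negative of all genes, and did not pass (limma adjusted p = 0.355). A dimmer probe set differed by -1.89 (adjusted p = 0.255 over all probe sets) and was also highest on WT 3 and WT 4, at 8.64 and 8.45. Without these 2 arrays the difference of the main probe set was -0.27.

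Adamts5, or aggrecanase 2, averaged 5.48 ± 0.57 in KO and 5.56 ± 0.73 in WT (SD, n = 5 each), and its 4 probe sets differed by -0.11 to 0.03. Adamts9 read 2.78 to 4.18 on KO arrays with a median of 3.48, and 3.80 to 4.49 on WT arrays with a median of 4.09, and was looked at because of its unadjusted p of 0.00989. It differed by -0.71 (SE 0.23, limma adjusted p = 0.171), and its other 2 probe sets differed by -0.27 and -0.94. Its mean lay within the Y-linked range. Adamts8, Adamts15 and Adamts20 had means of 2.04 to 2.62 and differences of -0.15, 0.04 and -0.14.

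Of the other ADAMTS genes, Adamts10, which acts on fibrillin microfibrils, averaged 4.89 ± 0.17 in KO and 5.31 ± 0.40 in WT (SD, n = 5 each), a difference of -0.42 (SE 0.19, limma adjusted p = 0.360). WT 1 read 5.96 against 4.94 to 5.35 on the other WT arrays, and the difference was -0.25 without it and -0.20 without WT 1, WT 2 and KO 8. Adamts16, known from kidney and gonads, averaged 5.97 ± 0.23 in KO and 5.86 ± 0.15 in WT, and its dimmer probe set differed by -0.12 against 0.11 for the main one. Adamts12, a protease of cartilage oligomeric matrix protein, read 1.73, 2.21, 2.10, 2.04 and 3.59 on KO 8, KO 9, KO 10, KO 21 and KO 23, and 2.46, 2.23, 4.54, 4.09 and 2.30 on WT 1 to WT 5. Only WT 3 and WT 4 lay above the Y-linked range, and KO 23 was next, the 3 arrays with the most fibroblast signal. Its difference was -0.79 (limma adjusted p = 0.570) and 0.00 without WT 3 and WT 4. Adamts7 (0.15), Adamts6 (-0.37), Adamts18 (0.11) and Adamts19 (-0.23) did not pass either. Adamts3, the procollagen N-propeptidase also needed to activate VEGF-C, averaged 2.51 ± 0.40 in KO and 2.41 ± 0.29 in WT.

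Proteins that hold these proteases in check or help them work were read as lists. Of 5 inhibitors of metalloproteinases, 0 passed, and at an unadjusted p under 0.05 Timp2 alone was lower. All 5 differences were below 0, with a median of -0.45 against -0.01 for all genes. Over all genes 9536 of 18193 lay below 0, and 5.65% were lower at an unadjusted p under 0.05. Timp4 (-0.10) and Reck (-0.13) had means within the Y-linked range, at 3.53 and 3.43. Timp3, the matrix-bound inhibitor of ADAM17 and of the aggrecanases, averaged 10.76 ± 0.38 in KO and 11.21 ± 0.49 in WT (SD, n = 5 each), a difference of -0.45 (SE 0.24, limma adjusted p = 0.506). It was -0.28 without WT 2, -0.18 without WT 1, WT 2 and KO 8, and -0.75 without WT 3 and WT 4. Timp2 differed by -0.99 (adjusted p = 0.274) and Timp1 by -0.93 (0.738), and both were highest on WT 3 and WT 4, at 9.25 and 9.12 for Timp2 and 8.99 and 9.17 for Timp1. Both are named here because of their values.

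Of 9 partners that carry ADAM10 or ADAM17 to the surface, 0 passed and 8 differed upward, with a median of 0.20. At an unadjusted p under 0.05, 1 was higher. Over all genes 8657 of 18193 differed upward, with a median of -0.01, and 7.33% were higher at an unadjusted p under 0.05. The rhomboid-like gene Rhbdf1 differed by -0.31 (limma adjusted p = 0.609). The 1 higher at an unadjusted p was the tetraspanin gene Tspan5, a guide of ADAM10 singled out after its value was seen. It averaged 7.83 ± 0.29 in KO and 7.20 ± 0.49 in WT, with a limma adjusted p of 0.218. WT 1 was the lowest of all arrays for Tspan5 (6.48) and Tspan14 (6.45), as it was for Adam10 and Adam17. Of 4 proprotein convertases, which trim the inhibitory prodomain off many ADAM and ADAMTS proteins, 0 passed, at unadjusted p under 0.05 too, and Furin differed by -0.03. Of 7 ADAMTS-like genes, which lack the protease domain, 0 passed, at unadjusted p under 0.05 too, and Adamtsl5 differed by 0.32.

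Of 30 membrane proteins known to be shed by ADAMs, 2 rose and 0 fell, and 9 were higher and 0 lower at an unadjusted p under 0.05, with a median difference of 0.13. Over all genes 2.3% were called higher and 7.33% were higher at an unadjusted p under 0.05, and the median was -0.01. Of the 9, WT 1 was the lowest of all arrays for Epgn, Ereg, Notch2, Notch3 and Tnfrsf1a. Another WT array was the lowest for Tgfa, Dll1, L1cam and App. Egf, Il1r2 and Erbb4 had means within the Y-linked range, at 3.38, 3.20 and 2.65. Epgn, encoding the EGF receptor ligand epigen, read 8.92, 8.50, 9.31, 8.91 and 8.17 on KO 8, KO 9, KO 10, KO 21 and KO 23, and 7.24, 8.16, 7.58, 7.36 and 8.01 on WT 1 to WT 5. Its groups did not overlap, though narrowly, with 8.17 on KO 23 against 8.16 on WT 2. The Epgn difference was 1.10 (SE 0.24, limma adjusted p = 0.0261). Of the 30 genes, 2 had groups that did not overlap, where 4.38% of all genes did so. The other was Tnfrsf1a, which did not pass (difference 0.61, limma adjusted p = 0.057). Notch3, a receptor cut by ADAM10, averaged 7.51 ± 0.41 in KO and 6.24 ± 0.67 in WT, a difference of 1.26 (SE 0.30, adjusted p = 0.0436). The Epgn call was lost without KO 8, KO 9, KO 10, KO 21, WT 1, WT 3 or WT 4, with limma adjusted p from 0.0122 to 0.0822 over single arrays left out. It was also lost without WT 3 and WT 4 (0.96, adjusted p = 0.149) and without WT 1, WT 2 and KO 8 (1.08, adjusted p = 0.0933). The Notch3 call was lost without KO 9, KO 10, KO 21, KO 23, WT 1, WT 2, WT 4 or WT 5, with adjusted p from 0.0247 to 0.13, and without KO 23 and WT 5 (0.144). With all 10 arrays it was lost when adjusted over every probe set (0.0564). It was also lost when each gene was read through its most variable probe set (0.0524), where the Notch3 difference stayed at 1.26. The other Notch3 probe set differed by 1.27, with a limma adjusted p of 0.0473 over all probe sets. Sdc1, encoding syndecan 1, differed by -0.07 (adjusted p = 0.921).

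Of 15 matrix proteins known to be cut by ADAMTS proteases, 0 rose and 1 fell, with a median difference of -0.25 and 13 of 15 below 0, where over all genes 2.3% were called higher and 0.346% lower, the median was -0.01 and 9536 of 18193 lay below 0. Of the 15, 7 (Col1a1, Col1a2, Col3a1, Col5a1, Fn1, Fbn2 and Lox) read highest on WT 3 and WT 4, the arrays with the most fibroblast signal, and 3 of these are also fibroblast markers. Lox, which encodes a collagen cross-linking enzyme, read 4.71 to 7.02 on KO arrays, and 9.28 and 9.11 on WT 3 and WT 4 against 4.84 to 6.31 on the other WT arrays. The part of fibroblast content in the list's values was not tested. The 1 was Vcan, encoding versican, the substrate of Adamts1, Adamts4, Adamts5 and Adamts9. It read 7.84, 7.63, 7.39, 6.47 and 9.06 on KO 8, KO 9, KO 10, KO 21 and KO 23, and 9.53, 8.75, 9.75, 9.77 and 10.17 on WT 1 to WT 5. As with Adam12, KO 23 was the only KO array that overlapped WT, here above WT 2. The difference was -1.91 (SE 0.40, limma adjusted p = 0.0207). All 7 other Vcan probe sets also differed downward, by -2.03 to -0.07. Without WT 3 and WT 4 the difference was -1.80 with an adjusted p of 0.108, and the call was also lost without KO 9 (0.065), KO 10 (0.0675) or WT 4 (0.0598). Col1a1, the fibroblast collagen gene, differed by -0.28 (limma adjusted p = 0.952), but by 0.12 without KO 8, 0.32 without WT 3, 0.25 without WT 4 and 1.23 without WT 3 and WT 4.

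**Figure D5:**
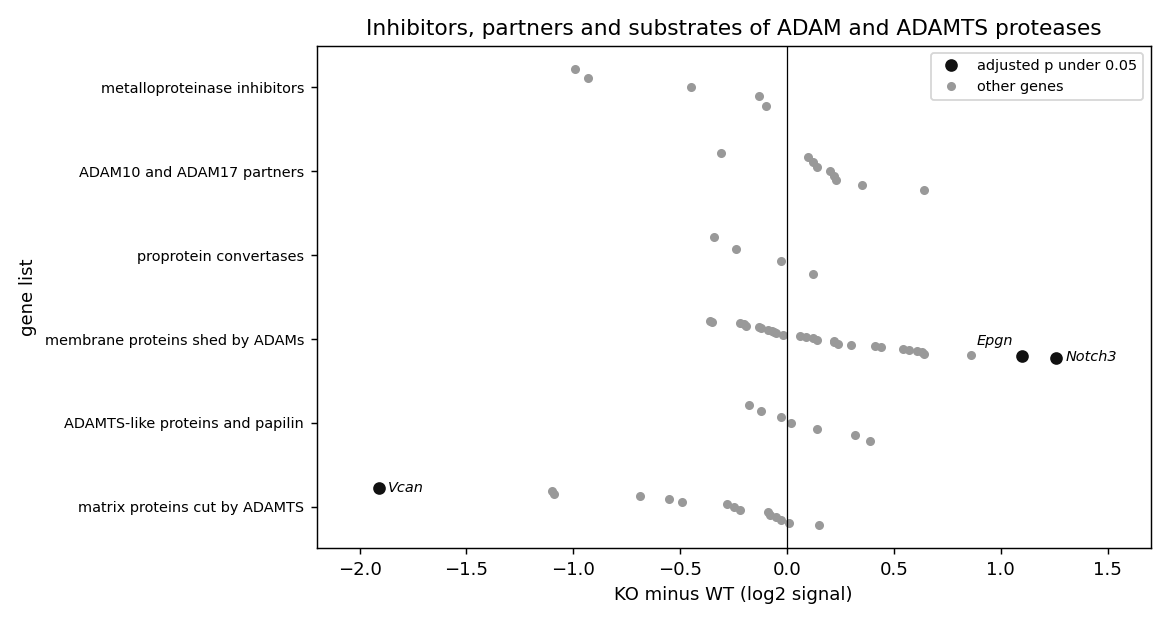
Difference between KO and WT (log2 signal, horizontal axis) of each gene in 6 lists of inhibitors, partners and substrates (vertical axis). Black points passed at an adjusted p under 0.05, namely Epgn (1.10), Notch3 (1.26) and Vcan (-1.91); grey points did not.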

How the data were processed

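RNA of 10 primary keratinocyte samples was measured on 1 Affymetrix array each. The deposited values are log2 signals made by the authors with RMA, per the submitters' processing notes; version and software are not given in the sources used here. RMA brings all arrays to 1 common distribution, so a shift shared by most genes cannot be seen, and it compresses differences of dim genes. Values ran from 1.13 to 14.92 and were used as deposited. The number of arrays limits the precision.

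Of 45101 probe sets, 64 are controls, 34945 belong to 1 gene, 932 to several and 9160 to none in the platform annotation. Symbols of 18031 of 18193 genes came from a RefSeq table. Differences were fitted with limma 3.58.1 in R 4.3.3 (lmFit, eBayes, two-sided) and adjusted by Benjamini-Hochberg over all 18193 genes. Single values per array were compared by exact permutation over 252 assignments. The fit was tested on simulated data. Alternatives changed the probe set, the probe sets admitted, the adjustment, a dim-gene filter, the normalization, array weights, the variance prior and the arrays.

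Named genes were called members, members without overlap, the 12 with the highest mean, the brightest and the most different member of each role, and called or brightest genes of each list. That gave 26 genes, 17 of them ADAM or ADAMTS genes; other named genes were chosen after their values were seen. The genes and lists were chosen with earlier results of these data known.

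Of the ADAM and ADAMTS genes on the lists of roles, Adamts2, Adamts13, Adamts14 and Adamts17 and 9 ADAMs of the germ line had no probe set of their own and were not analysed here, nor were Areg, Fbn1 and Dsg3. Of the 43 genes, 20 have several probe sets, and in 8 of these a further probe set had the opposite sign; 1 of the 31 further probe sets passed, that of Adam12. Probe sets shared by several genes were not used.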

Additional observations from a re-analysis of the deposited data

Results flagged for a closer look

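Of 86 groups of 5 arrays (43 genes in 2 genotypes), 11 held an array far from the other 4 by Dixon's gap rule. In independent groups of normally distributed values the rule flags about 1 in 20. The 86 groups share the same 10 arrays, so the count is not a test against that rate. KO 8 accounted for 3 of the 11 and WT 1 for 5. KO 8 was the highest KO array for Adam26a (3.38 against 2.63 to 2.67), Adamts3 (3.22 against 2.30 to 2.36) and Adamts6 (3.69 against 2.97 to 3.12). KO 10 was the highest for Adam23 (5.08 against 4.30 to 4.46), KO 21 for Adamts16 (6.38 against 5.78 to 5.90) and KO 23 for Adamts12 (3.59 against 1.73 to 2.21). WT 1 was the highest WT array for Adam15 (8.49 against 7.93 to 8.02 on the others), Adam1a (5.88 against 4.78 to 5.0), Adam24 (5.24 against 4.22 to 4.44) and Adamts8 (2.60 against 1.94 to 2.04), and the lowest for Adam9 (6.20 against 8.08 to 8.47). KO 8 and WT 1 also had the highest spike-in signal, 10.12 and 10.40 against at most 9.81 elsewhere (mean log2), and the part of this in the values was not tested.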

How the results depend on the processing

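No paired analysis was possible because the groups share no array number. The count of lower ADAM and ADAMTS genes (1) was 4 with array weights, 2 without KO 23 and WT 5, 0 without WT 3 and WT 4, 0 without WT 1, WT 2 and KO 8, and 0 to 2 when single arrays were left out; array weights added Adamts4, Adamts6 and Adamts9, and leaving out KO 23 added Adamts9. The count of higher ones (0) was 1 without WT 3 and WT 4, Adamts1, and 0 without any single array. Over all genes, the 419 higher became 877 with array weights and 264 to 419 without single arrays, and the 63 lower became 561 with array weights, 41 adjusted over every probe set, 40 with arrays centred on their medians, 95 without KO 23 and WT 5, and 13 to 107 without single arrays. Over the lists of inhibitors, partners and substrates, the 2 higher genes became 6 with array weights, 1 with the most variable probe set, adjusted over every probe set, or without WT 1, WT 2 and KO 8, without WT 3 and WT 4, or without KO 23 and WT 5, and 0 to 1 without single arrays. The 1 lower gene became 3 with array weights, 0 without WT 1, WT 2 and KO 8, 0 without WT 3 and WT 4, and 0 to 1 without single arrays. Fewer arrays leave fewer degrees of freedom; otherwise the cause was not tested. Leaving out WT 3 and WT 4, or KO 23 and WT 5, was chosen after seeing the data.

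Adam12 had the most negative difference under all settings that kept the 10 arrays but array weights, where it ranked 2nd; without 1 array it ranked between 1st and 4th. Of 564 refits of the 26 named genes under 22 settings, 28 turned the sign, 0 of them for a gene called before or after. With all arrays kept they were Adam9 at -0.08 with array weights and Adamts16 at 0.00 with the mean of probe sets and -0.12 with the most variable one. Over single arrays left out, the differences spanned -0.10 to 0.05 for Adam15, -0.19 to 0.38 for Adam9, -0.33 to 0.18 for Adamts5, -0.06 to 0.13 for Adam11, -0.01 to 0.28 for Adam23, -0.28 to 0.13 for Adam4, -0.08 to 0.20 for Adamts3, -0.11 to 0.08 for Furin and -0.77 to 0.32 for Col1a1. Without WT 3 and WT 4, Adamts5 was at 0.35, Adam4 at 0.20, Adamts12 at 0.00, Adamts3 at -0.02, Furin at 0.06 and Col1a1 at 1.23. Adam4 was at 0.11 without KO 23 and WT 5, and Adam9 at -0.17 without WT 1, WT 2 and KO 8.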

Other observations

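The 5 probe sets that read ADAM genes jointly with another gene belong to no gene alone. Of 4 shared by Adam1a and its neighbour Mapkapk5, the brightest averaged 5.35 ± 0.30 in KO and 5.17 ± 0.31 in WT (log2 signal, SD, n = 5 each). The probe set shared by Adam6a and Adam6b averaged 2.45 ± 0.13 in KO and 2.77 ± 0.46 in WT.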
